A study of Mus musculus with 4 samples.

Results

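The 9 genes described here mark radial glia and astrocytes, and all 9 were found among the 23420 gene symbols of the counts. They were taken by symbol, as *Sox9*, *Fabp7*, *Slc1a3*, *Nfia*, *Nfib*, *Gfap*, *Aldh1l1*, *S100b* and *Hopx*. The counts come from RNA-seq of cervical motor neuron (MN) cultures made from mouse embryonic stem cells of the E14 line. Cells of 2 genotypes were compared, wild type (WT) and *Patz1* -/- (*Patz1* KO), with 2 libraries each, and the paper describes replicates as independent differentiations. Both genotypes went through embryoid bodies, which were treated with retinoic acid and a smoothened agonist to give ventral cells of the cervical spinal cord. PATZ1 is a zinc finger protein with a BTB/POZ domain, and the study asked what its loss does to gene expression in MNs. The *Patz1* KO lines were grown from single clones after Cas9 editing, and the labels do not name the clone behind each library. No sorting step is described, so each library was RNA of a whole culture, and fewer cells of a type and less RNA per cell cannot be told apart.

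Radial glia are the stem cells that line the ventricles of the developing neural tube, and they give rise first to neurons and later to glia. In the spinal cord the ventral progenitors that make MNs go on to make oligodendrocyte precursors, while other progenitor domains make astrocytes. The switch to gliogenesis is driven by transcription factors such as SOX9 and, after it, NFIA and NFIB, and by Notch, BMP and JAK-STAT signals. GFAP, the filament protein of mature astrocytes, comes late in this sequence.

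Library totals were 14769104 and 15728158 counts for WT, with 23881522 and 17402342 counts for *Patz1* KO. *Patz1* itself was counted 1363 and 1499 times in WT, against 1154 and 714 times in *Patz1* KO, which is 92.9 ± 1.96 against 45.1 ± 3.56 CPM, the count as a share of the TMM-scaled library size (SD, n = 2 each). Both *Patz1* KO libraries thus lay below both WT libraries, with transcripts still counted. MN genes were present in every library, with at least 774 counts of *Mnx1* and 427 of *Chat*. Across the genome, 6836 of 14269 genes tested (47.9%) passed an adjusted p of 0.05 in edgeR's quasi-likelihood test, 24.1% higher and 23.8% lower in *Patz1* KO. Without WT replicate 2 the number was 4521. The groups did not overlap in 74.2% of the genes tested, and in 37.0% both *Patz1* KO libraries lay above both WT libraries. Of the 9 glial genes, 7 had enough counts to be tested. At this threshold 5 of the 7 were higher in *Patz1* KO, namely *Sox9*, *Fabp7*, *Slc1a3*, *Aldh1l1* and *Hopx*, and 0 were lower. *Nfia* and *Nfib* did not pass, and *Gfap* and *S100b* had too few counts to be tested.

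The bases before the RefSeq start sites of 5 of the genes are printed first, since the NFI proteins encoded by *Nfia* and *Nfib* bind DNA at TTGGC and act on glial promoters. The 250 bases upstream of the start are given 5′ to 3′ on the strand of the gene, from RefSeq on GRCm38.p6, in lower case with TTGGC or its reverse complement GCCAA in capitals. *Fabp7*, *Slc1a3* and *Aldh1l1* are shown as genes that were higher in *Patz1* KO, and *S100b* and *Gfap* as genes that were barely counted.

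*Fabp7*, chr10:57784673-57784922, plus strand: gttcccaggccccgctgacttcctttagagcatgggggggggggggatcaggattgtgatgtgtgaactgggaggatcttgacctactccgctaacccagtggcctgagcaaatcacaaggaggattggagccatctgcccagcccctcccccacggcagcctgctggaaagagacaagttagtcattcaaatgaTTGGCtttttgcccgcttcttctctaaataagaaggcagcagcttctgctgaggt
*Slc1a3*, chr15:8710808-8711057, minus strand: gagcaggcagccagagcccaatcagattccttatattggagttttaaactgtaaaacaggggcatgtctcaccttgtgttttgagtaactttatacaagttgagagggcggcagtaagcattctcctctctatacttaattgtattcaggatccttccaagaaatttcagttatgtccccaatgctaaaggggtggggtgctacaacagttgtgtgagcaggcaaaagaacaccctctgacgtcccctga
*Aldh1l1*, chr6:90550543-90550792, plus strand: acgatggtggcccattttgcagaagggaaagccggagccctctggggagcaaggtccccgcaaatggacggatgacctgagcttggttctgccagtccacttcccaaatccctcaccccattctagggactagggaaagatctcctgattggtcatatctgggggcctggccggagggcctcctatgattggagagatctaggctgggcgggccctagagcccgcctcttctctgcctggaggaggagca
*S100b*, chr10:76253586-76253835, plus strand: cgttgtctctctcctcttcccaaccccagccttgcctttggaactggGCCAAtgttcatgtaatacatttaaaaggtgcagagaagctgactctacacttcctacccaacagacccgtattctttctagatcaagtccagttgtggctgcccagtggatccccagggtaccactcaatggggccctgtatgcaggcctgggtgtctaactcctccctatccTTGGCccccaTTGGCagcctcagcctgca
*Gfap*, chr11:102897201-102897450, minus strand: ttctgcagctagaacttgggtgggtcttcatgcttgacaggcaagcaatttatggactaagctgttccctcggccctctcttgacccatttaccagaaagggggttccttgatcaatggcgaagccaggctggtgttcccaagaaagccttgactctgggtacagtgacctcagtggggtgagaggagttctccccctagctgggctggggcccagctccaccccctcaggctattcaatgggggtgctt

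The window of *Fabp7* had 1 match, which began 55 bases before the start. That of *S100b* had 3, beginning 203, 29 and 19 bases before it, and those of *Slc1a3*, *Aldh1l1* and *Gfap* had 0. The letters TTGGC, on either strand, were in 41.5% of all 32851 windows of this length. *Hopx* has 2 RefSeq starts, of which 1 window held a match, and the *Nfia* window held none. The *Nfia* window, chr4:97581693-97581942, lies before the GENCODE interval of the gene (97772734 to 98118874) and does not adjoin it. The windows of *Aldh1l1* and *Gfap* lie inside the GENCODE intervals of their genes (90486427 to 90600203 and 102887336 to 102900912), as does 1 of the 2 *Hopx* windows. The full palindrome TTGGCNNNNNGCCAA was in 0.0365% of all windows and in none of the 8 windows of these genes. Of the other motifs searched on both strands, the SOX core ACAAT was in 27.7% of all windows and in those of *Fabp7*, *Slc1a3*, *Nfia* and 1 of *Hopx*. TGGGAA, the core bound by RBPJ of the Notch pathway, was in 21.6% of all windows and in those of *Fabp7*, *Aldh1l1*, *Gfap* and *S100b*. The STAT motif TTCNNNGAA was in 7.02% of all windows and in that of *Slc1a3*. GGGAGGG, the core bound by MAZ, was in 19.7% of all windows and in that of *Fabp7*. *Sox9* and *Nfib* were not among the 7 genes with an entry. A match of letters is not evidence of binding. The genes that were higher in *Patz1* KO and those that were barely counted both include windows with and without the NFI letters.

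*Sox9* encodes a transcription factor of the SoxE family that gives progenitors the competence to make glia. Its position in mm10 (GRCm38) is chromosome 11, bases 112782224 to 112787760, plus strand, and no other annotated exon overlaps it. It was counted 765 and 764 times in WT, against 1681 and 1243 times in *Patz1* KO. After scaling this was 51.4 and 48.1 CPM in WT and 69.3 and 74.1 CPM in *Patz1* KO, so the 2 groups were apart. *Sox9* rose by a log2 fold change of 0.53 (standard error 0.095, edgeR adjusted p = 0.000185), or 1.44-fold. Its relatives *Sox8* and *Sox10*, which act with it in the glial lineage and of which *Sox10* also marks neural crest, were tested too. *Sox8* went from 97 and 90 counts to 400 and 232, a log2 fold change of 1.33 (edgeR adjusted p = 4.77e-06). *Sox10* went from 17 and 14 counts to 52 and 27, and its log2 fold change of 0.91 was close to the threshold (edgeR adjusted p = 0.0489). Per kilobase of exon, *Sox9* was the highest of the 3 in both genotypes, at 12.02 ± 0.566 CPM per kilobase in WT and 17.3 ± 0.813 in *Patz1* KO (SD, n = 2 each), against 1.95 ± 0.194 and 4.86 ± 0.605 for *Sox8*.

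*Nfia* and *Nfib* encode nuclear factor I proteins, which follow SOX9 in the gliogenic sequence and bind DNA as dimers. Both lie on chromosome 4, *Nfia* from 97772734 to 98118874 and *Nfib* from 82290173 to 82705750. *Nfia* was counted 734 and 891 times in WT, against 1387 and 926 times in *Patz1* KO, or 49.3 and 56.0 CPM against 57.2 and 55.2 CPM. *Nfib* was counted 470 and 605 times in WT, against 889 and 616 times in *Patz1* KO, or 31.6 and 38.1 CPM against 36.7 and 36.7 CPM. In both genes the *Patz1* KO values overlapped with the range of the WT libraries. The log2 fold change of *Nfia* was 0.094 (edgeR adjusted p = 0.452), with a 95% interval from -0.11 to 0.30. That of *Nfib* was 0.075 (edgeR adjusted p = 0.593), with an interval from -0.15 to 0.30. Over the 4 fits without 1 library, the log2 fold change of *Nfia* went from 0.0057 to 0.20 and that of *Nfib* from -0.051, without WT replicate 1, to 0.22, without WT replicate 2.

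The other members of the NFI family did not move in one way. *Nfix*, a late member in neural stem cells, went from 22 and 19 counts to 109 and 65, a log2 fold change of 1.65 (standard error 0.29, edgeR adjusted p = 0.000159). *Nfic* was counted 97 and 137 times in WT, against 178 and 107 times in *Patz1* KO, with a log2 fold change of -0.14 (edgeR adjusted p = 0.593). Per kilobase, *Nfix* was the lowest of the 4 even in *Patz1* KO, at 0.570 ± 0.0598 CPM per kilobase against 5.16 ± 0.13 for *Nfia* and 2.45 ± 0.00283 for *Nfib* (SD, n = 2 each).

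*Hopx* encodes a small homeodomain protein without DNA binding of its own and marks outer radial glia and quiescent stem cells. It lies on chromosome 5 from 77086988 to 77115121 on the minus strand, and 412 of its 1516 exon bases are shared with the antisense gene *Hopxos*. It was counted 20 and 17 times in WT, against 87 and 29 times in *Patz1* KO, or 1.34 and 1.07 CPM against 3.59 and 1.73 CPM. Both *Patz1* KO values were above WT, but they differed from each other 2.08-fold, where the median gene differed 1.12-fold between these libraries. The log2 fold change was 1.19 (standard error 0.38, edgeR adjusted p = 0.0149). It did not hold without *Patz1* KO replicate 1, which gave 0.53 (edgeR adjusted p = 0.356), or without WT replicate 2, which gave 1.03 (edgeR adjusted p = 0.0908). DESeq2's Wald test gave 1.17 (adjusted p = 0.0936).

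*Fabp7* encodes the brain fatty acid binding protein, also called BLBP, a marker of radial glia. It lies on chromosome 10 from 57784881 to 57788450, with no overlapping exon, and was by far the most counted of the 9 genes. Only 1.34% of the genes tested had a higher mean CPM. It was counted 6873 and 6839 times in WT, against 16237 and 12650 times in *Patz1* KO, or 461.4 and 430.1 CPM against 669.9 and 754.3 CPM. The groups were apart, and *Fabp7* rose by a log2 fold change of 0.68 (standard error 0.11, edgeR adjusted p = 4.38e-05). Its relatives with enough counts went the other way. *Fabp5*, the epidermal type, which is also made in neural progenitors, fell by 0.39 on the log2 scale (edgeR adjusted p = 0.00591). *Fabp3*, the heart type, fell by 1.47 on the log2 scale, from 502 and 421 counts to 241 and 199 (edgeR adjusted p = 2.22e-07). In raw counts, *Fabp7* over *Fabp5* was 0.904 and 0.887 in WT and 1.96 and 1.81 in *Patz1* KO. The other 6 genes of the family had at most 4 counts in any library.

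*Slc1a3* encodes GLAST, the glutamate transporter of radial glia and astrocytes. It lies on chromosome 15 from 8634124 to 8710764 on the minus strand, with no overlapping exon. It was counted 688 and 821 times in WT, against 2808 and 1961 times in *Patz1* KO, or 46.2 and 51.6 CPM against 115.8 and 116.9 CPM. The *Patz1* KO libraries were close to each other and well above WT. *Slc1a3* rose 2.38-fold, a log2 fold change of 1.25 (standard error 0.094, edgeR adjusted p = 9.36e-09), and 3.48% of all genes tested had a larger log2 fold change. *Slc1a2*, which encodes GLT-1, the main glutamate transporter of mature astrocytes, was counted 682 and 670 times in WT, against 909 and 615 times in *Patz1* KO. The log2 fold change of *Slc1a2* was -0.24, at the edge of the threshold (edgeR adjusted p = 0.049). The ratio of *Slc1a3* to *Slc1a2* counts was 1.01 and 1.23 in WT and 3.09 and 3.19 in *Patz1* KO. *Slc1a4*, a transporter of neutral amino acids, fell by 0.49 on the log2 scale (edgeR adjusted p = 0.00065). *Slc1a6*, with 9 to 46 counts, rose by 1.05 on the log2 scale (edgeR adjusted p = 0.0336).

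*Aldh1l1* encodes a 10-formyltetrahydrofolate dehydrogenase of the folate cycle and is a broad marker of astrocytes. It lies on chromosome 6 from 90486427 to 90600203, and of its 4516 exon bases 499 are shared with the antisense gene *Gm15756* and 105 with *Gm45901*. It was counted 25 and 17 times in WT, against 276 and 101 times in *Patz1* KO, or 1.68 and 1.07 CPM against 11.4 and 6.02 CPM. Both *Patz1* KO libraries were above WT, with replicate 1 of the *Patz1* KO 1.89-fold above replicate 2. *Aldh1l1* rose 6.47-fold, a log2 fold change of 2.69 (standard error 0.33, edgeR adjusted p = 2.78e-06), and 0.28% of all genes tested had a larger log2 fold change. Over the 4 fits without 1 library the log2 fold change went from 2.14 to 3.06. Its mitochondrial relative *Aldh1l2*, which had 432 to 758 counts, had a log2 fold change of -0.10 (edgeR adjusted p = 0.52).

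*Gfap* and *S100b*, the classical markers of mature astrocytes, were at or near the detection limit. *Gfap*, on chromosome 11 from 102887336 to 102900912, was counted 1 and 1 times in WT, against 0 and 0 times in *Patz1* KO. All 4 values are under the 3 counts taken as the limit, which correspond to 0.124 to 0.201 CPM over the libraries. The limit takes in counting error alone, since no molecular identifiers were used. A difference in *Gfap* was therefore not detectable at this depth. *S100b*, which encodes a calcium-binding protein, lies on chromosome 10 from 76253853 to 76261159 and was counted 7 and 7 times in WT, against 5 and 10 times in *Patz1* KO. The *Patz1* KO libraries lay on both sides of WT. Without the filter on low counts the log2 fold change of *S100b* was -0.25 (standard error 0.75, edgeR adjusted p = 0.83), so a difference was not detectable either.

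**Figure D1:**
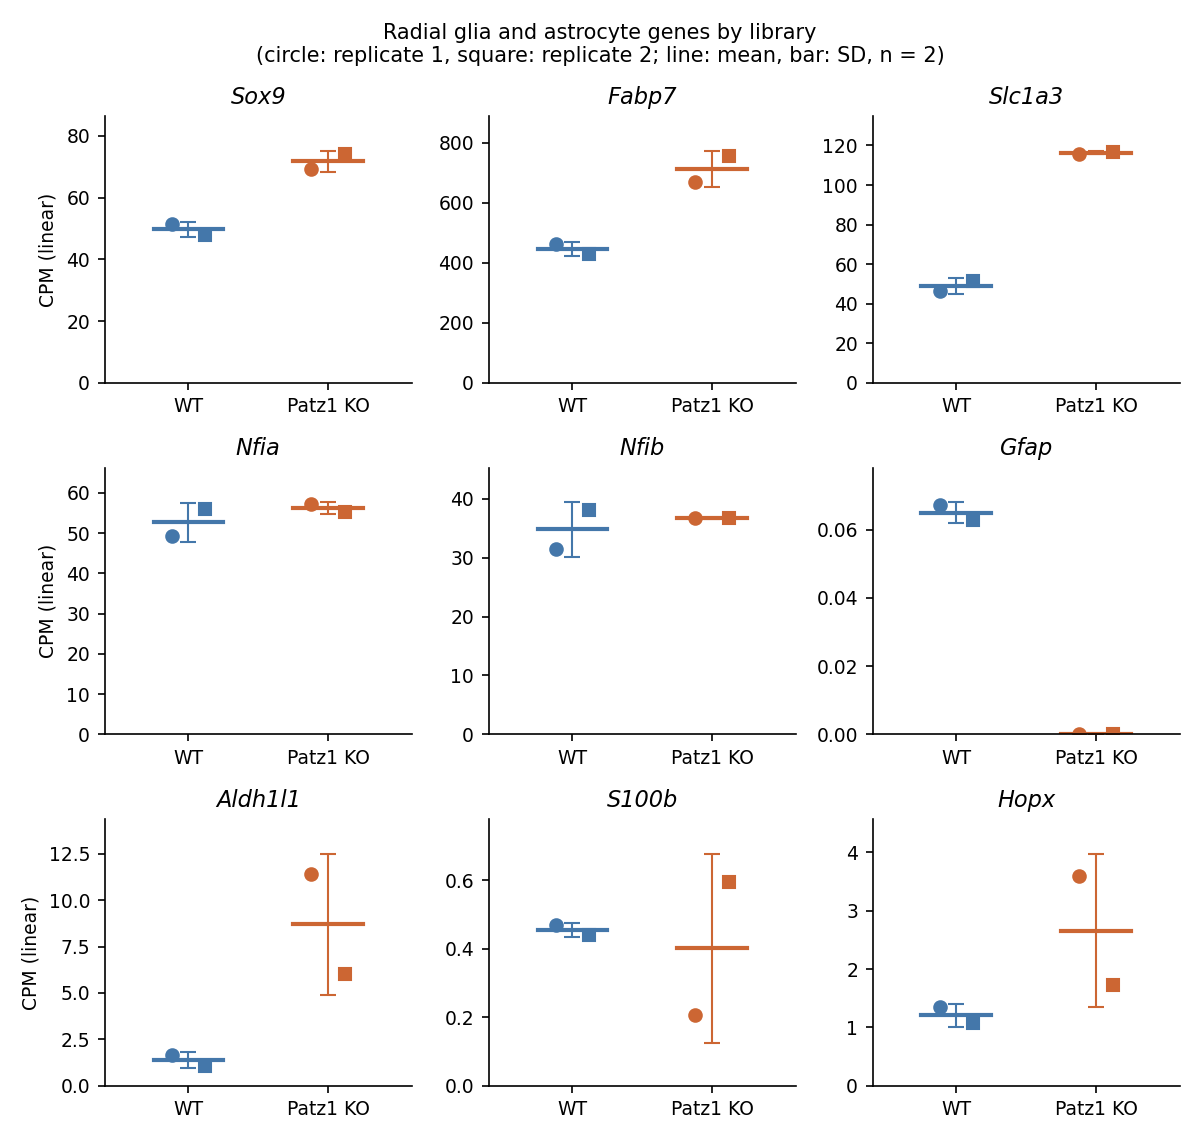
CPM of the 9 genes (y axes, linear from 0, each with its own scale) in the 2 WT and 2 *Patz1* KO libraries, with replicate 1 as a circle, replicate 2 as a square, the mean as a line and the SD as a bar. *Slc1a3* went from 46.2 and 51.6 to 115.8 and 116.9 CPM, the *Patz1* KO values of *Aldh1l1* and *Hopx* are far from each other, and *Gfap* has at most 1 count in every library.

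**Figure D2:**
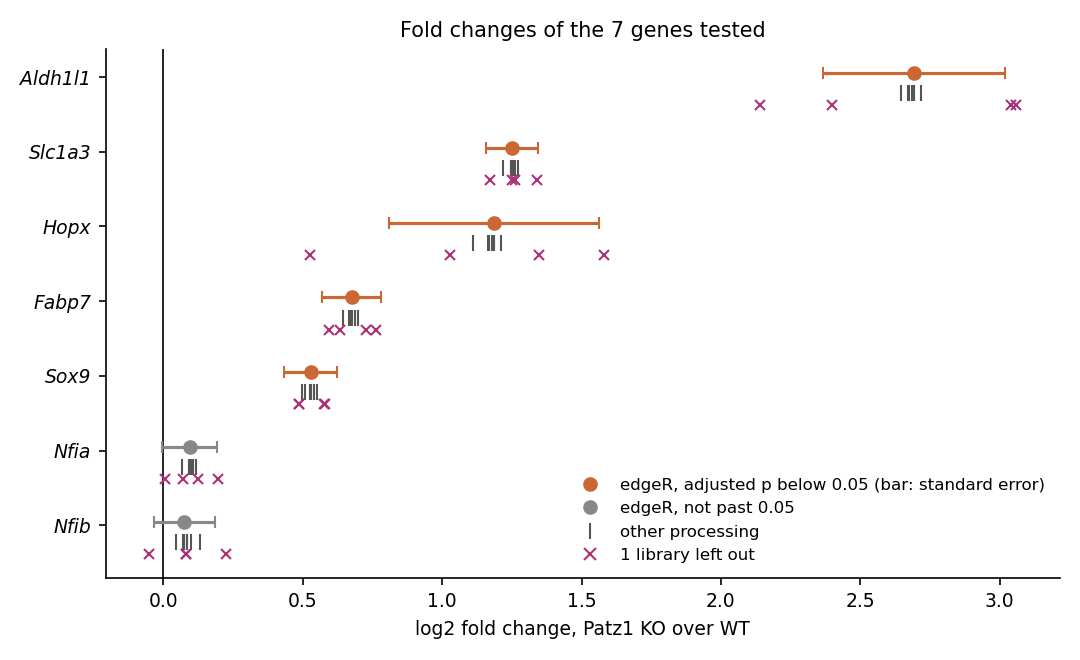
Log2 fold change of *Patz1* KO over WT (x axis) of the 7 genes tested, with the standard error as a bar, the 8 other ways of processing as ticks and the 4 fits without 1 library as crosses. *Aldh1l1* is highest at 2.69, *Nfia* and *Nfib* lie next to 0, and the crosses of *Hopx* reach from 0.53 to 1.58.

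Ratios of raw counts within a library do not depend on how the libraries are scaled. *Nfia* over *Nfib* was 1.56 and 1.47 in WT and 1.56 and 1.5 in *Patz1* KO, with overlap between the groups. *Fabp7* over *Sox9* was 8.98 and 8.95 in WT and 9.66 and 10.2 in *Patz1* KO. *Slc1a3* over *Sox9* was 0.899 and 1.07 in WT and 1.67 and 1.58 in *Patz1* KO, so the rise of *Slc1a3* was larger than that of *Sox9* in both *Patz1* KO libraries. *Sox9* over *Sox2*, a gene of neural progenitors at large, was 0.278 and 0.241 in WT and 0.437 and 0.420 in *Patz1* KO. *Slc1a3* over *Vim*, the filament gene of radial glia and many other cells, was 0.0525 and 0.0631 in WT and 0.139 and 0.143 in *Patz1* KO. The ratios are given as a description, and no test of them was made.

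**Figure D3:**
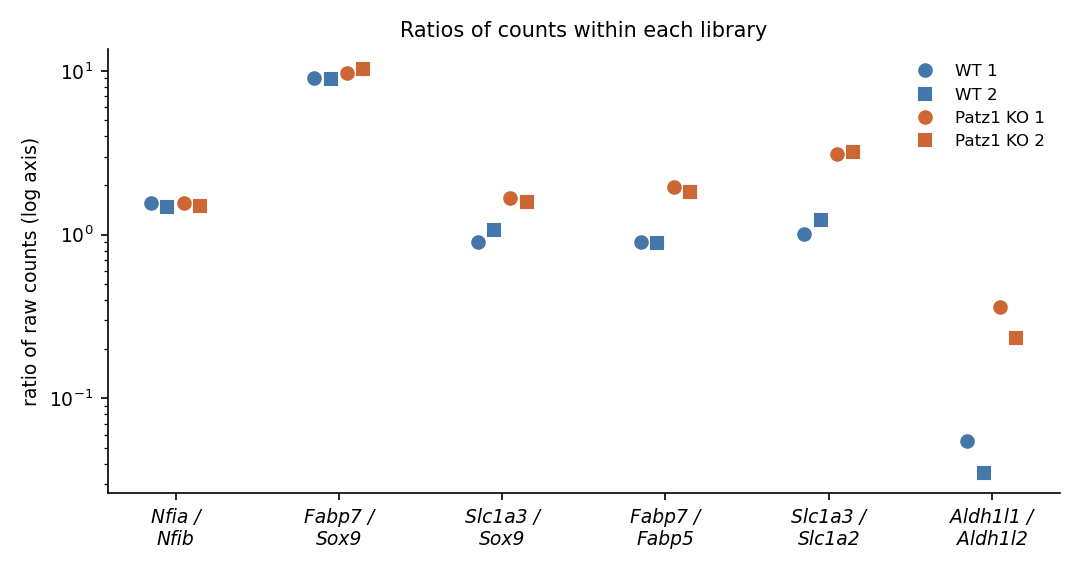
Ratios of raw counts of gene pairs (y axis, log scale) in each of the 4 libraries, with WT in blue and *Patz1* KO in orange. *Nfia* over *Nfib* stays between 1.47 and 1.56 in all libraries, while *Slc1a3* over *Slc1a2* goes from 1.01 and 1.23 to 3.09 and 3.19.

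Per kilobase of exon, the order of the levels in WT was *Fabp7* (356.6 ± 17.7 CPM per kilobase), *Sox9* (12.02 ± 0.566), *Slc1a3* (5.73 ± 0.451), *Nfia* (4.84 ± 0.438), *Nfib* (2.33 ± 0.307) and *Hopx* (0.796 ± 0.128; SD, n = 2 each). *S100b* (0.307 ± 0.0141) and *Aldh1l1* (0.304 ± 0.0954) came next and overlapped, and *Gfap* was last. In *Patz1* KO the first 5 kept their order, from *Fabp7* (569.6 ± 47.7) and *Sox9* (17.3 ± 0.813) to *Slc1a3* (13.6 ± 0.0919), *Nfia* (5.16 ± 0.13) and *Nfib* (2.45 ± 0.00283). *Aldh1l1* (1.93 ± 0.839) moved above *Hopx* (1.75 ± 0.868), but its 2 libraries overlapped with those of *Nfib* and of *Hopx*. *S100b* (0.270 ± 0.186) was below these, and *Gfap* was at 0. The exon lengths span all annotated transcripts, from 1250 bases for *Fabp7* to 14957 for *Nfib*, so levels of genes with many isoforms can be understated. *Fabp7* made up 68.7% to 72.1% of the summed CPM of the 9 genes, and the sum without it was 181.9 and 196.4 CPM in WT and 294.3 and 291.3 CPM in *Patz1* KO.

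**Figure D4:**
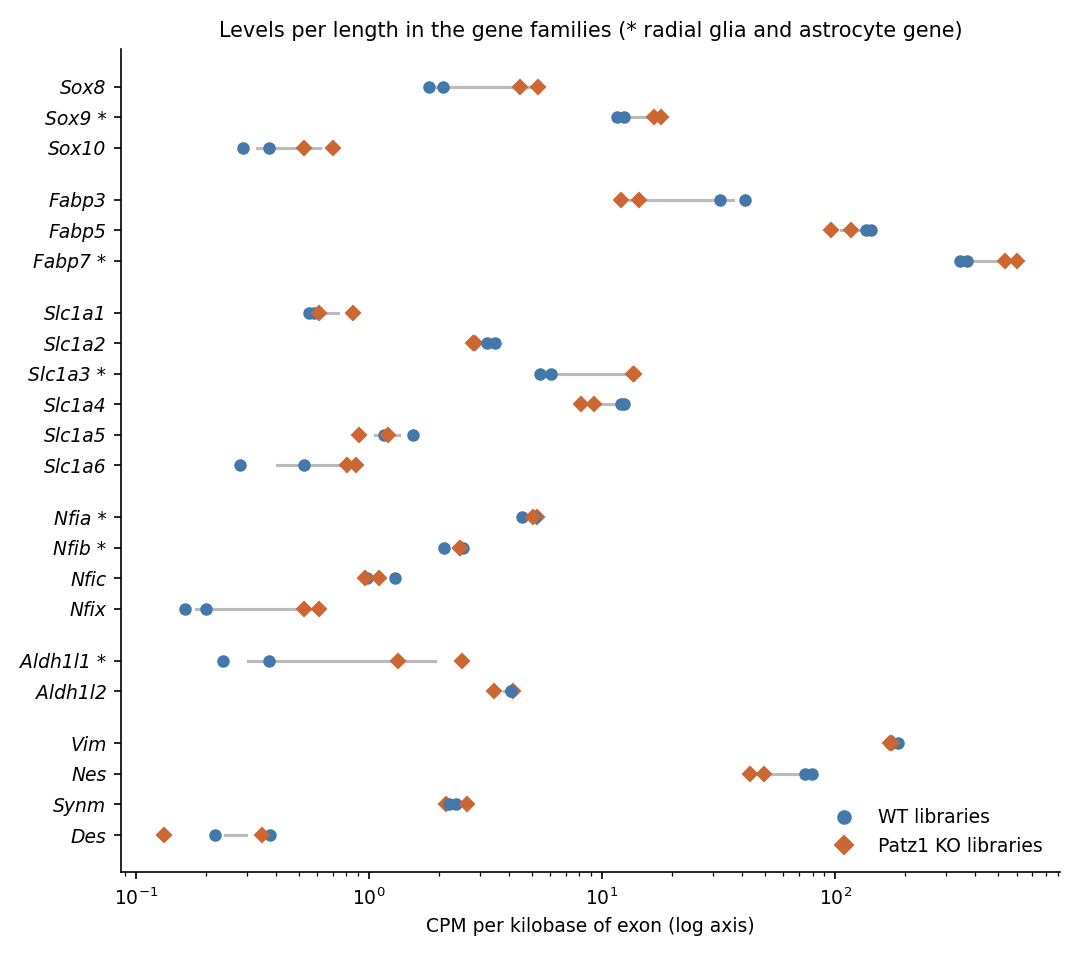
CPM per kilobase of exon (x axis, log scale) of *Sox9*, *Fabp7*, *Slc1a3*, *Nfia*, *Nfib* and *Aldh1l1*, each marked with a star. Relatives of these genes and of *Gfap* with enough counts are shown too. *Hopx*, *S100b*, *Gfap* and the S100 relatives are not drawn. WT libraries are circles, *Patz1* KO libraries are diamonds, and a line joins the group means. *Fabp7* rises while *Fabp3* and *Fabp5* fall, and *Nfix* rises but stays the lowest NFI gene.

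The counts of the lists that follow stand beside 24.1% of all genes tested that were higher and 23.8% that were lower in *Patz1* KO, and shares near these are not a result about a list. Of 25 other genes of radial glia and neural progenitors tested, 7 were higher and 9 lower, 9 did not pass, and the median log2 fold change was -0.11, against a median of -0.001 over all genes tested. *Ptprz1*, a receptor phosphatase of radial glia, rose by 1.68 (edgeR adjusted p = 7.21e-10) and *Sox1*, a factor of early neural progenitors, by 1.03 (edgeR adjusted p = 1.78e-06) on the log2 scale. *Hes5*, a Notch target that keeps radial glia undifferentiated, fell by 0.99 on the log2 scale (edgeR adjusted p = 9.2e-07). *Nes*, the progenitor filament gene, had 492.4 ± 24.9 CPM in WT and 298.4 ± 29.0 CPM in *Patz1* KO (SD, n = 2 each) and fell by 0.72 on the log2 scale (edgeR adjusted p = 1.44e-05). The most counted genes per length were *Vim* (log2 fold change -0.04, edgeR adjusted p = 0.785), *Sox2* (-0.20, edgeR adjusted p = 0.08) and *Dbi* (-0.14, edgeR adjusted p = 0.26). The summed level of this list was 3862 and 3814 CPM in WT and 3596 and 3530 CPM in *Patz1* KO. The number of genes called lower was 5 without WT replicate 1 and also 5 without WT replicate 2.

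Of 26 astrocyte genes listed, 21 were tested, 9 were higher and 8 lower, and the median log2 fold change was 0.33. *Gja1*, the gap junction gene of astrocytes, which many other cells also express, went from 581 and 641 counts to 92 and 105 and fell by 3.02 on the log2 scale (edgeR adjusted p = 2e-10). *Id3*, a target of BMP signals, and *Clu* fell, with log2 fold changes of -1.62 and -1.78 (edgeR adjusted p = 5.11e-10 and 1.95e-09). Among the most counted per length, *Sparc* fell by 1.19 and *Glul*, the glutamine synthetase gene, by 0.28 on the log2 scale (edgeR adjusted p = 6.73e-09 and 0.0118), and *Cst3* did not pass (log2 fold change 0.08, edgeR adjusted p = 0.468). *Aqp4*, the water channel of astrocyte endfeet, was counted 5 and 6 times in WT, against 15 and 6 times in *Patz1* KO and was not tested. The number of genes called lower was 5 without WT replicate 1.

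Of 34 genes of gliogenic signals, 32 were tested, with 6 higher, 13 lower and a median log2 fold change of -0.23. *Stat3*, which carries the signal of the CNTF and LIF receptors, rose by 0.95 on the log2 scale (edgeR adjusted p = 3.89e-07). *Hey1*, a Notch target, fell by 1.04 (edgeR adjusted p = 9.45e-08), *Bmpr1a*, a BMP receptor, by 0.57 (edgeR adjusted p = 3.57e-05) and *Smad4* by 0.30 on the log2 scale (edgeR adjusted p = 0.0165). Of 14 oligodendrocyte lineage genes tested, 6 were higher and 3 lower, with a median of 0.28. *Pdgfra*, which marks oligodendrocyte precursors and also mesenchyme, fell by 3.96 on the log2 scale (edgeR adjusted p = 2.49e-11). The myelin gene *Cnp* rose, with a log2 fold change of 1.147 (edgeR adjusted p = 1.63e-07), *Zfp488* fell by 0.71 on the log2 scale (edgeR adjusted p = 1.15e-05) and *Olig2*, the factor of the MN progenitor domain, did not pass (log2 fold change -0.17, edgeR adjusted p = 0.148).

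Markers of other cells moved in the same libraries. Of 18 neuron genes, 12 were higher and 1 lower, with a median log2 fold change of 0.59, and their summed level was 5530 and 5186 CPM in WT and 7856 and 7414 CPM in *Patz1* KO. *Chat* rose by 0.99, *Mnx1* by 0.88, *Syp* by 0.85, *Tubb3* by 0.53 and *Dcx* by 1.01 on the log2 scale, and *Gap43* did not pass (log2 fold change 0.17, edgeR adjusted p = 0.19). The gene called lower was *Snap25*, chosen after its value was seen, and the count of lower genes was 0 without WT replicate 1 or 2 and 2 without *Patz1* KO replicate 2. Of 11 floor plate genes tested, 8 were lower, with log2 fold changes of -2.99 for *Shh* and -2.35 for *Foxa2*, and 2 were higher (1 without either WT library). *Ntn1* fell by 0.48 and *Slit2* rose by 0.30, and *Slit1* did not pass (log2 fold change -0.16, edgeR adjusted p = 0.27). The summed level of floor plate genes was 1741 and 1728 CPM in WT and 1670 and 1576 CPM in *Patz1* KO. Most of this sum was *Slit2* (744.8 and 740.7 CPM in WT, 914.5 and 918.0 CPM in *Patz1* KO) and *Ntn1* (600.5 and 590.0 CPM, then 442.4 and 414.0 CPM). The floor plate shares radial glial genes with the rest of the ventricular zone, and the part of these cells in the values above was not tested.

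*Sox9* also acts in neural crest and cartilage, and *Fabp7* and *S100b* are made in Schwann cells. Of 13 neural crest and Schwann genes tested, 3 were higher and 5 lower. The summed level of the list was 303 and 289.2 CPM in WT and 340.8 and 281.1 CPM in *Patz1* KO. Most of this sum was *Ngfr*, which MNs also express, at 243.2 and 224.1 CPM in WT and 274.2 and 226.3 CPM in *Patz1* KO. The sum therefore says little about the other genes of the list. *Snai2* fell by 2.93 and *Ets1* by 1.30 on the log2 scale, while *Ngfr* did not pass (log2 fold change 0.10, edgeR adjusted p = 0.432). Without *Patz1* KO replicate 2 the number called higher was 5, and with at least 10 counts in every library the number called lower was 3 of 9. Of 8 cartilage genes tested, 2 were higher and 2 lower, with a summed level from 105.2 to 141.9 CPM over the 4 libraries. *Col2a1*, a direct target of SOX9 in cartilage, fell by 2.31 and *Col9a2* by 1.79 on the log2 scale (edgeR adjusted p = 1.87e-10 and 4.57e-06). *Col9a3* rose by 1.40 and *Sox5* by 0.72 on the log2 scale, and *Sox6* did not pass (log2 fold change -0.22, edgeR adjusted p = 0.212).

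Extraembryonic endoderm genes had up to 20.2 CPM in WT (*Rbp4*, replicate 2) and up to 2.27 CPM in *Patz1* KO (*Dab2*, replicate 2). Of 10 tested, 8 were lower in *Patz1* KO and 0 higher, with log2 fold changes of -3.90 for *Rbp4*, -3.34 for *Dab2*, -2.92 for *Cubn* and -3.49 for *Gata4*, and the summed level went from 62.2 and 74.4 CPM to 9.45 and 10.3 CPM. With at least 10 counts in every library the number called lower was 3 of 5. Of 9 microglia genes found, 1 was tested, *Tmem119*, which did not pass (log2 fold change -0.09, edgeR adjusted p = 0.753). *P2ry12* and *Cx3cr1* had 1 to 7 and 2 to 10 counts, *Aif1* had 0 in every library, and *Ptprc* at most 2. The part that a change in cell types had in the values of the 9 glial genes was not tested.

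**Figure D5:**
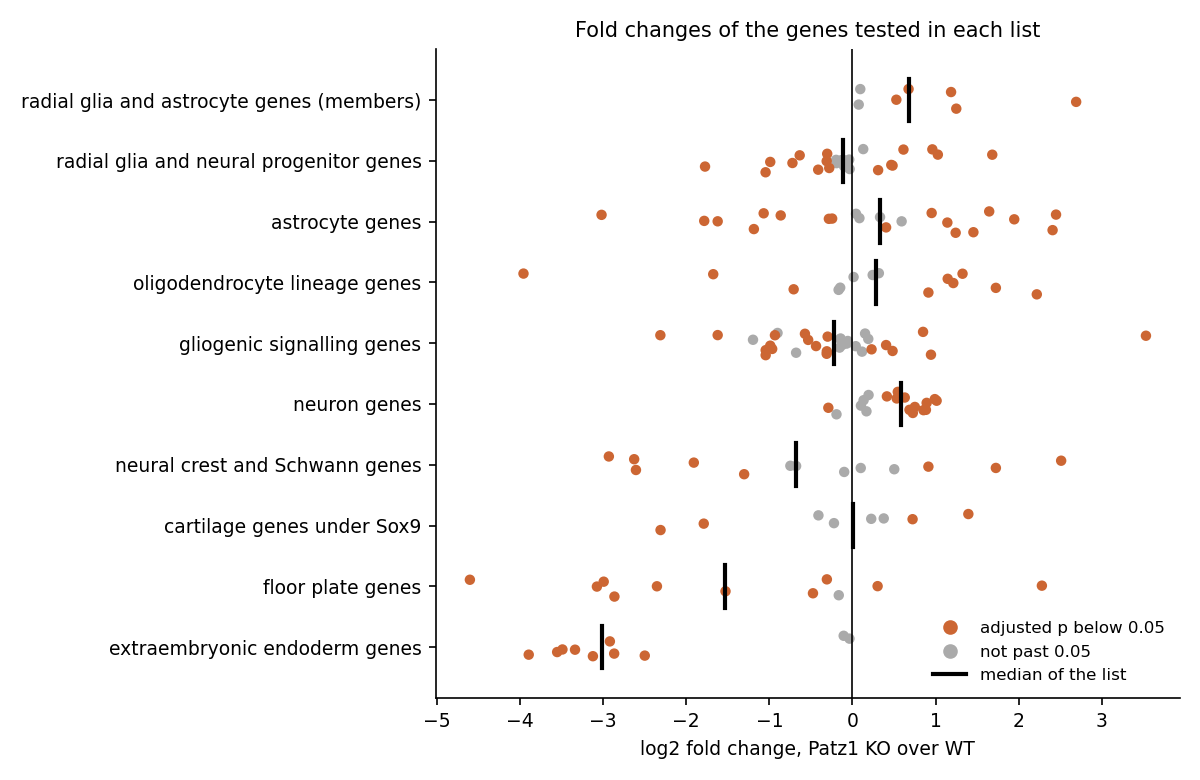
Log2 fold change of *Patz1* KO over WT (x axis) of each gene tested in 10 lists (rows), in orange where the adjusted p was below 0.05, with the median of each list as a black line. The glial genes of the first row lie at or above 0 with a median of 0.68, the lists of radial glia and astrocyte genes spread to both sides, and the median of the endoderm genes is -3.02.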

How the data were processed

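The 4 RNA-seq libraries, 2 WT and 2 *Patz1* KO, were grouped by their titles. The titles name ESCs, while source and cell type name MNs. Per the labels, ribosomal RNA was depleted from total RNA, stranded libraries were made, and the authors used mm10, TopHat2 2.1.1, Bowtie2 2.3.1 and featureCounts 1.6.2. The annotation and strand setting are not given in the sources used here. The deposited values are raw counts per gene symbol, and every line names a gene.

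Genes were filtered with filterByExpr (minimum count 10), scaled with TMM and tested with edgeR 4.0.16 (R 4.3.3, limma 3.58.1), by its quasi-likelihood test with Benjamini-Hochberg adjustment over all 14269 genes tested. Standard errors were obtained from the log2 fold change and its F statistic, and 95% intervals use the t quantile of the fit. CPM use TMM library sizes. The biological coefficient of variation was 7.71%. DESeq2 (version 1.42.0 here, while the study used another version), other scalings and filters, robust estimation, the replicate number as a block, thinning and leaving out each library were alternatives. On simulated counts for this comparison (14141 genes), edgeR recovered 67.7% of 1.5-fold, 92.5% of 2-fold and 98.4% of 4-fold changes. DESeq2 (18392 genes) recovered 47.8%, 77.6% and 92.4%. The simulation gave every gene the common dispersion of 0.00594 and changed only 63 to 67 genes of each fold size. Its rates therefore need not hold for these data, least of all for genes with few counts.

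Positions, exon overlaps and exon lengths come from GENCODE M21 on GRCm38, the assembly of mm10, where 21777 of 23420 symbols were found. Named genes are the 9 members, *Patz1*, relatives of the members, and the 3 genes of each list with the smallest p and the 3 with the highest level per length, of which a few are not reported here. *Snap25*, *Aqp4*, *P2ry12*, *Cx3cr1*, *Aif1* and *Ptprc*, and the astrocyte genes of the closing section, were named after their values were seen. Members and lists were chosen with earlier results of these data known. Plots and sequence searches used Python 3.11.15.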

Additional observations from a re-analysis of the deposited data

How the results depend on the processing

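The 5 genes higher in *Patz1* KO kept their direction under all 12 alternatives, and *Sox9*, *Fabp7*, *Slc1a3* and *Aldh1l1* also kept an adjusted p below 0.05 under each. *Hopx* lost its call with DESeq2's Wald test (log2 fold change 1.17) and in 2 of the fits without 1 library, which ranged from 0.53 to 1.58. Its counts of 17 to 87 limit its precision. *Nfib* ranged from -0.051 to 0.22 without 1 library, and its sign turned without WT replicate 1 (-0.051). Where 1 library was left out, the lone library of a group was assumed to vary like the other group. Over those fits the number of genes called went from 4521 to 7816, and that of genes called lower from 2175 to 3831. Genes called lower numbered 5 to 10 for radial glia, 5 to 8 for astrocytes and 0 to 2 for neurons, and genes called higher 2 to 5 for neural crest and 1 to 2 for the floor plate. DESeq2 called 0 neuron genes lower. With at least 10 counts in every library, 3 neural crest and 3 endoderm genes were called lower, since fewer were tested. The cause of the other shifts was not tested. Same-numbered replicates did not vary together (r = 0.0304 across 14269 genes), so the numbers were not taken as pairs. With the replicate number as a block, 7361 genes were called, 5 of the glial genes among them.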

Other observations

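The relatives of *S100b* were unlike each other. Of 15 S100 genes, 7 were tested, 1 was higher and 4 were lower in *Patz1* KO, and 5 had no count. *S100a10*, which encodes a partner of annexin A2, was counted 1209 and 1161 times in WT, against 4576 and 3692 times in *Patz1* KO, and rose by 1.41 on the log2 scale (edgeR adjusted p = 3.42e-09). *S100g*, which encodes the calcium-binding protein calbindin-D9k, went from 51 and 71 counts to 10 and 16, a log2 fold change of -2.61 (edgeR adjusted p = 1.76e-05).

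Of 21 astrocyte genes tested, 9 were higher and 8 lower in *Patz1* KO, and the 4 with the largest rises, chosen after their values were seen, are given here. Others of the list fell, *Gja1* by a log2 fold change of -3.02 and *Clu* by -1.78. *Mt3*, a brain metallothionein, was counted 50 and 35 times in WT, against 375 and 248 times in *Patz1* KO (log2 fold change 2.45, edgeR adjusted p = 3.25e-08). *Slc6a11*, a GABA transporter of glia, went from 57 and 55 counts to 537 and 273 (log2 fold change 2.41, edgeR adjusted p = 1.96e-08). *Atp1b2*, a sodium pump subunit of astrocytes, went from 8 and 8 counts to 49 and 34 (log2 fold change 1.95). Its WT counts were under the filter's minimum of 10, so *Atp1b2* was tested only through its *Patz1* KO counts, and its p is left out. With at least 10 counts in every library, 20 astrocyte genes were tested and 8 were called higher. *Aldoc*, the brain aldolase, went from 65 and 72 counts to 318 and 249 (log2 fold change 1.65, edgeR adjusted p = 6.91e-07). As with *Aldh1l1*, these genes were counted few times in WT, and *Gfap* stayed at 0 counts in both *Patz1* KO libraries.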
